A study of Mus musculus with 9 samples.

Results

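The 10 genes described here mark adipocyte progenitors and fibroblasts in fat: Pdgfra, Pdgfrb, Cd34, Ly6a, Dpp4, Pi16, Dlk1, Cd248, Thy1 and Dcn. They were picked by name, and every probe set whose only gene symbol was one of these 10 was used, which gave 147 probe sets of the 208397 that carry a single symbol. A probe set is a small group of array probes that reads about one exon. The probe sets of a gene were combined into 1 log2 value per array, and all 10 genes were among the 11342 of 16299 that could be tested, which needed 3 or more probe sets and a mean level higher than the lowest 25% of genes.

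RNA from whole perigonadal white adipose tissue of mice 4 months old was hybridised to exon arrays, 3 arrays per genotype. The WT arrays are from wild-type mice, the G609G arrays from mice homozygous for the G609G allele, and the LCS arrays from mice homozygous for the LCS allele. Both are known as alleles of Lmna, which encodes lamins A and C. G609G is the mouse form of a progeria mutation and produces progerin, a truncated lamin A, whereas LCS yields lamin C without lamin A. All 3 groups had the same age and tissue and no treatment. The labels state neither whether an array holds RNA of 1 animal or of pooled animals nor the sex, and the design text speaks of biological replicates.

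In adipose tissue, mesenchymal progenitors lie around vessels and in the fibrous sheets between fat lobules, and are usually recognised by the receptor Pdgfra together with the surface proteins Cd34 and Sca-1, the product of Ly6a. Cells of the fibrous interstitium that carry Dpp4 and Pi16 are regarded as an early, multipotent state, from which preadipocytes committed to fat formation arise. Dlk1 is a preadipocyte protein that holds back fat formation, and Dcn encodes decorin, a collagen-binding proteoglycan that fibroblasts secrete in large amounts.

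The G609G arrays stood apart from the others as a whole. The median over all probe sets of an array was 7.21 ± 0.061 (SD, n = 3) in WT, 7.23 ± 0.035 in LCS and 6.57 ± 0.057 in G609G, and the median log2 fold over all tested genes was -0.47 for G609G minus WT and 0.05 for LCS minus WT. The change of each member gene in G609G is therefore given on the deposited scale and also relative to the median gene, a scale on which every array was moved by a constant so that its middle gene had no deviation; the median fold of all genes then became -0.01. The arrays also differed in other tissue: the mean log2 level of 11 skeletal muscle genes was 11.77 to 11.83 in the G609G arrays against 5.24 to 5.34 in WT and 5.54 to 5.63 in LCS. That of 10 epididymis genes was 8.30 to 8.41 in G609G, 12.48 to 12.58 in WT and 11.99 to 12.01 in LCS. Of the 11 muscle genes, 6 had a WT mean and 6 an LCS mean under the filter on gene means. Of the 10 epididymis genes, 2 had a G609G mean under it. These list levels thus rest in part on values at the low end of the scale, and the differences are not read as sizes. In whole tissue, fewer cells of a type and less RNA per cell cannot be told apart, and the part of the admixed tissue in the results below was not tested.

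In G609G tissue the progenitor and fibroblast markers were mostly lower, but by very unequal amounts. As deposited, 8 of the 10 genes fell and none rose, with a median log2 fold of -0.72; 71.3% of all tested genes were called lower and 8.26% higher, so the count itself is near the background. Relative to the median gene, 6 fell (Cd248, Thy1, Dpp4, Pdgfra, Pi16 and Cd34), Dcn and Dlk1 rose, and Pdgfrb and Ly6a were not called, beside 36.7% of all genes called lower and 34% higher. The groups did not overlap as deposited for 9 of 10 genes, against 79.2% of all genes. All calls are from limma's moderated test over all genes at a Benjamini-Hochberg adjusted p of 0.05.

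In LCS tissue 6 of the 10 genes rose (Pi16, Thy1, Cd34, Cd248, Ly6a and Pdgfrb), 1 fell (Dpp4), and Pdgfra, Dlk1 and Dcn were not called. The median log2 fold of the members was 0.32. Among all tested genes 22.5% were called higher and 13% lower. The same counts of 6 and 1 came out relative to the median gene, where the background was 22.3% higher and 17.7% lower. The arrays of LCS and WT did not overlap for 7 of 10 members and for 52.2% of all genes. The comparisons with WT share the WT arrays.

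**Figure D1:**
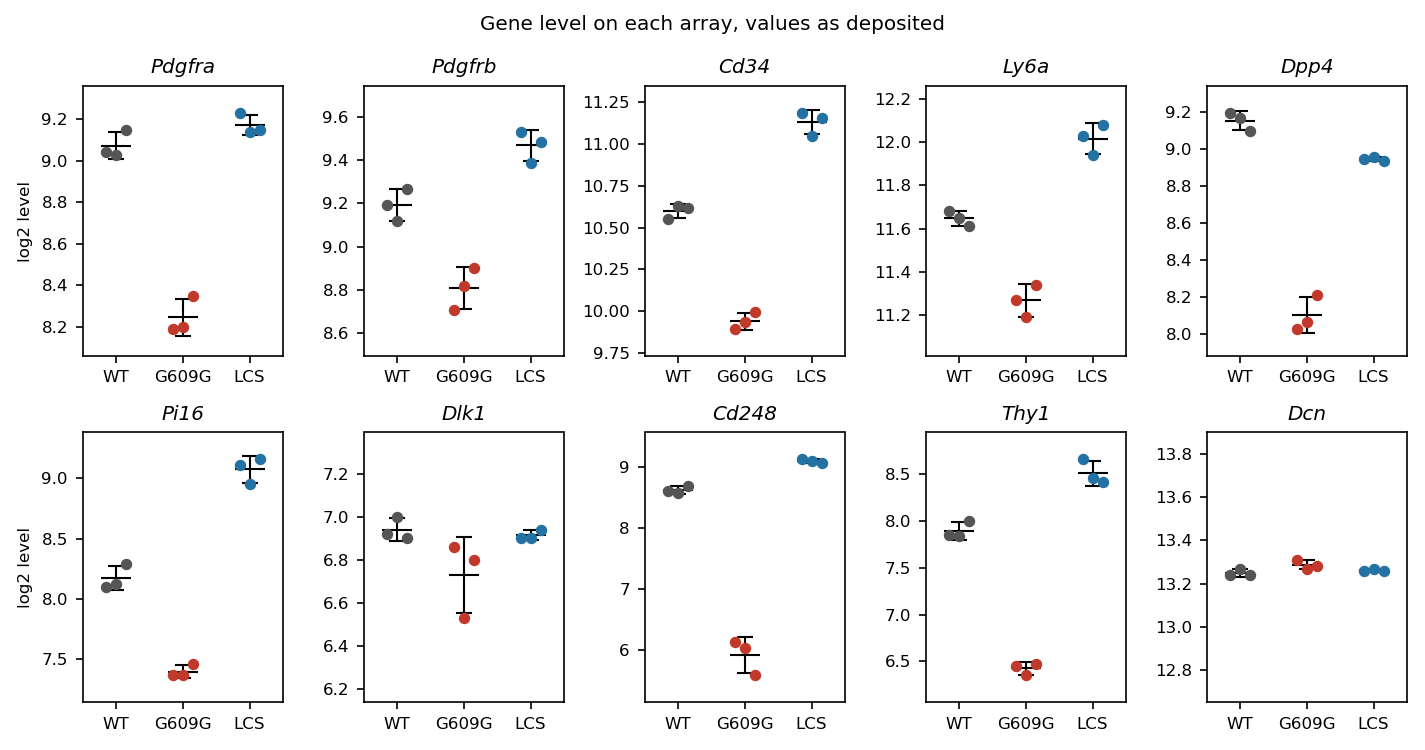
Log2 level of each of the 10 marker genes in the 3 WT, 3 G609G and 3 LCS arrays; points are arrays, horizontal bars group means, and each panel has its own vertical range. Cd248 and Thy1 show the widest gap between G609G and the other groups, Pi16 is highest in LCS, and Dcn lies between 13.24 and 13.31 in every array.

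The PDGF receptors are tyrosine kinases of mesenchymal cells; Pdgfra marks adipose progenitors and fibroblasts, and Pdgfrb also marks the pericytes and smooth muscle cells of vessels. Pdgfra lay at 9.04, 9.03 and 9.15 (log2 level, arrays 1 to 3) in WT, at 8.19, 8.20 and 8.35 in G609G and at 9.23, 9.14 and 9.15 in LCS. The G609G arrays were below all others, whereas those of LCS and WT overlapped. Pdgfra fell by 0.83 on the log2 scale in G609G (SE 0.066, limma adjusted p = 3.38e-08), which is 1.77-fold, and by 0.36 relative to the median gene (adjusted p = 8.73e-06). The LCS difference of 0.10 (SE 0.066) was not called, with an adjusted p of 0.269 by limma.

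Pdgfrb was at 9.19, 9.12 and 9.27 in WT, 8.71, 8.82 and 8.90 in G609G and 9.53, 9.39 and 9.49 in LCS, so the 3 groups were separate. It fell by 0.39 in G609G as deposited (SE 0.067, limma adjusted p = 1.03e-04). Relative to the median gene the sign turned to 0.08 and the difference was not called (adjusted p = 0.148), and after quantile normalization of the arrays it was 0.03. In LCS it rose by 0.28 (SE 0.067, adjusted p = 0.00488), or 0.24 relative to the median gene. As deposited G609G was lowest for both receptors, and for Pdgfrb this order did not hold relative to the median gene. In LCS Pdgfrb but not Pdgfra was called above WT; whether the receptors differed from each other in LCS was not tested.

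Cd34 and Ly6a encode surface proteins used to sort adipose progenitors; endothelial cells also carry Cd34, and some endothelial and blood cells carry Sca-1. Cd34 was measured at 10.55, 10.63 and 10.62 in WT, 9.90, 9.94 and 10.00 in G609G and 11.18, 11.05 and 11.15 in LCS. It fell by 0.66 in G609G (SE 0.045, limma adjusted p = 6.28e-09) and by 0.20 relative to the median gene (adjusted p = 3.57e-04), and rose by 0.53 in LCS (adjusted p = 4.35e-07). The 3 groups lay apart on the deposited scale, with LCS highest.

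Ly6a was read by only 3 probe sets, and 2 more that also list another gene were not used; its close relatives in the Ly6 family could share signal with it. Its arrays were at 11.68, 11.65 and 11.61 in WT, 11.27, 11.19 and 11.34 in G609G and 12.03, 11.94 and 12.08 in LCS. LCS was again highest and G609G lowest, without overlap. The fall of 0.38 in G609G (SE 0.041, limma adjusted p = 1.02e-06) was no larger than that of the median gene: relative to it the difference was 0.08 (adjusted p = 0.117), and after quantile normalization it was -0.06 and not called. In LCS Ly6a rose by 0.37 (SE 0.041, adjusted p = 7.42e-06), and by 0.34 relative to the median gene.

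Dpp4, a membrane peptidase, and Pi16, a secreted or membrane-anchored peptidase inhibitor-like protein, mark the same interstitial progenitors. In LCS Pi16 was called higher and Dpp4 lower, though the Dpp4 call was lost when certain single arrays were left out, as given below. The promoters of both genes are shown because of these calls. They are the 250 bases before the start site on the gene's strand, 5′ to 3′, from RefSeq (GRCm38.p6, a different build from that of the arrays). The tables used here held such a sequence for 5 of the 10 members. Dpp4 is at chr2:62412232-62412481 on the minus strand and Pi16 at chr17:29318632-29318881 on the plus strand. Capitals mark matches to 6 motifs searched on both strands.
Dpp4: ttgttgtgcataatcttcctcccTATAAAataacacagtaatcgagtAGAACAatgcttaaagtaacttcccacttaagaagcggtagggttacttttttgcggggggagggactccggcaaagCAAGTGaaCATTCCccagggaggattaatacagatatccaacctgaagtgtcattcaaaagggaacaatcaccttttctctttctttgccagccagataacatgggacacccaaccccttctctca
Pi16: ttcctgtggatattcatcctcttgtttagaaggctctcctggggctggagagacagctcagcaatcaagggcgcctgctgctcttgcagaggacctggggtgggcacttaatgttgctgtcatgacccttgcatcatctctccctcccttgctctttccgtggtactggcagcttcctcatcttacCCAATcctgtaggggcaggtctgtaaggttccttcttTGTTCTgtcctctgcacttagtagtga

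The motifs were the TATA box (TATAAA, in 12.4% of 32851 promoter windows of the same length), the CCAAT box (CCAAT, 33.8%), the E-box (CANNTG, 66.2%), the AP-1 site (TGANTCA, 6.75%), the TEAD site (GGAATG, 12.6%) and the glucocorticoid receptor half-site (TGTTCT, 16.1%). No match of one motif overlapped a match of another in these windows. Dpp4 held TATAAA from -227 to -222 counted from the start site, the half-site from -203 to -198, an E-box from -126 to -121 and a TEAD match from -118 to -113. Pi16 held CCAAT from -64 to -60 and the half-site from -27 to -22. The half-site was the only one of the 6 motifs that both windows held. Pdgfra had 1 E-box match, and the windows of Cd34 and Dlk1 had 0 matches to the 6 motifs. These are letter matches in the windows and no measurement of binding.

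Dpp4 lay at 9.19, 9.17 and 9.10 in WT, 8.03, 8.07 and 8.21 in G609G and 8.94, 8.95 and 8.93 in LCS. WT was highest and G609G lowest, with no overlap. The mean log2 level of the 10 epididymis genes had the same order (12.48 to 12.58 in WT, 11.99 to 12.01 in LCS, 8.30 to 8.41 in G609G). Of these 10 genes, 4 rose and 4 fell in LCS. The part of that tissue in the Dpp4 values was not tested. Its fall in G609G was 1.05 on the log2 scale (SE 0.065, limma adjusted p = 1.97e-09), a 2.07-fold change, and 0.59 relative to the median gene (adjusted p = 1.25e-06). Dpp4 was the only member called lower in LCS, by 0.21 (SE 0.065, limma adjusted p = 0.0208), and by 0.24 relative to the median gene (adjusted p = 0.00383). That call was lost when any of 5 arrays was left out (WT 1 or 2, or LCS 1, 2 or 3), with adjusted p from 0.0515 to 0.0922 and log2 folds from -0.21 to -0.19, and also with a plain mean of its probe sets (adjusted p = 0.0547).

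Pi16 was at 8.10, 8.13 and 8.29 in WT, 7.37, 7.37 and 7.46 in G609G and 9.11, 8.95 and 9.16 in LCS. The groups were far apart, and the LCS arrays exceeded the highest WT array. In G609G Pi16 fell by 0.77 (SE 0.079, limma adjusted p = 4.70e-07), or 0.31 relative to the median gene (adjusted p = 3.56e-04). In LCS it rose by 0.90 (SE 0.079, adjusted p = 5.52e-07), a 1.87-fold change and the largest rise of the 10 genes in that comparison on the deposited scale, relative to the median gene and relative to Dcn.

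Cd248 encodes endosialin, a transmembrane glycoprotein of stromal fibroblasts and pericytes. Its WT arrays were at 8.61, 8.58 and 8.70, its G609G arrays at 6.13, 6.03 and 5.58 and its LCS arrays at 9.13, 9.11 and 9.07. The G609G arrays lay far below and were more spread than those of the other groups. Cd248 fell by 2.72 on the log2 scale (SE 0.114, limma adjusted p = 3.16e-11), that is 6.57-fold, and by 2.25 or 4.77-fold relative to the median gene (adjusted p = 9.26e-09). This was the largest fall among the members on the deposited scale, relative to the median gene, after quantile normalization (-2.17) and with a plain mean of probe sets (-2.48). Of its 7 probe sets 3 had a G609G mean under the filter on low values (5.13), so the size of the fall rests in part on values at the low end of the scale. In LCS it rose by 0.47 (SE 0.114, adjusted p = 0.00479).

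Thy1 encodes a glycolipid-anchored surface protein of fibroblasts that T cells and neurons also carry. It was found at 7.84, 7.84 and 8.0 in WT, 6.45, 6.35 and 6.48 in G609G and 8.65, 8.45 and 8.41 in LCS, and the 3 groups did not overlap. Thy1 fell by 1.47 in G609G (SE 0.087, limma adjusted p = 1.43e-09), a 2.76-fold change, and by 1.0 relative to the median gene (adjusted p = 7.90e-08). In LCS it rose by 0.61 (SE 0.087, adjusted p = 7.39e-05). Of 10 T cell genes only 4 passed the filter, with Cd3d, Cd3g, Cd4, Cd8a and Cd247 under it and Lck not matched to a probe set. The mean log2 level of the 4 was 6.04 to 6.17 in WT, 5.83 to 5.89 in G609G and 6.29 to 6.37 in LCS. The part of T cells in the Thy1 result was not tested.

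Dlk1 was at 6.92, 7.0 and 6.90 in WT, 6.86, 6.53 and 6.80 in G609G and 6.90, 6.90 and 6.94 in LCS. Array 2 of G609G was the lowest, and the LCS arrays lay within the range of WT. The G609G difference of -0.21 (SE 0.095) was not called as deposited (limma adjusted p = 0.0566) although the arrays did not overlap. Over the fits without one array it ran from -0.28 (adjusted p = 0.0217, without array 1 of G609G) to -0.11 (adjusted p = 0.276, without array 2 of G609G). It passed without array 3 of G609G (-0.25, adjusted p = 0.0379), with a plain mean of the probe sets (-0.32, adjusted p = 0.00682) and with eBayes without trend (adjusted p = 0.0388). Relative to the median gene Dlk1 rose by 0.25 (adjusted p = 0.0282), with overlapping arrays, and after quantile normalization the value was 0.30 (adjusted p = 0.0504), so its direction depends on the scale. The LCS difference was -0.03 (SE 0.095, limma adjusted p = 0.862).

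Dcn was at 13.24, 13.27 and 13.24 in WT, 13.31, 13.27 and 13.28 in G609G and 13.26, 13.27 and 13.26 in LCS. All 9 arrays lay between 13.24 and 13.31 as deposited, and no pair of groups was called (limma adjusted p = 0.0511 for G609G and 0.574 for LCS against WT). The G609G call appeared without array 2 of WT (0.05, adjusted p = 0.0261) or array 2 of G609G (0.05, adjusted p = 0.0389). Relative to the median gene Dcn rose by 0.50 in G609G (adjusted p = 8.04e-08), and after quantile normalization by 0.24 (adjusted p = 2.03e-07); with a plain mean of its probe sets and no scaling the value was -0.02. The highest value that any array held was 14.30 to 14.38, and only 5 tested genes had a higher mean than Dcn; the median fold of the 13 tested genes at or above 13 was -0.20, the smallest shift of all level bands. Whether the values of Dcn are compressed near the top of the scale was not tested.

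**Figure D2:**
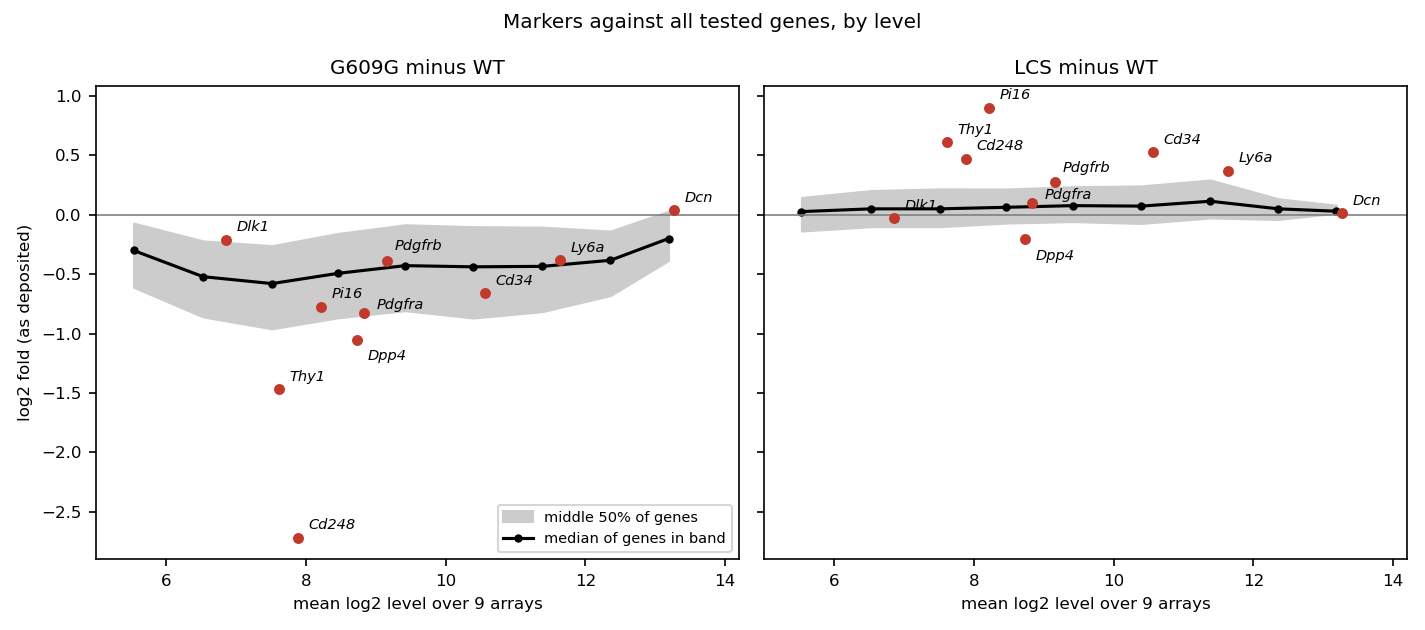
Log2 fold of each member as deposited (points) against its mean log2 level over the 9 arrays, with the median (line) and middle 50% (grey) of all tested genes in bands of 1 log2 unit, for G609G minus WT (left) and LCS minus WT (right). Cd248, Thy1 and Dpp4 lie below the grey range in G609G and Dlk1 just above it. In LCS Pi16, Thy1, Cd34, Cd248, Ly6a and Pdgfrb lie above it and Dpp4 below it.

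The shift of the G609G arrays was not the same at every level. The median fold of all tested genes was -0.58 at levels from 7 to 8, where Cd248 and Thy1 lie, -0.49 from 8 to 9, where Pdgfra, Dpp4 and Pi16 lie, and -0.43 from 9 to 10, where Pdgfrb lies. Set against genes of like level, Cd248 at -2.72, Thy1 at -1.47 and Dpp4 at -1.05 were below the middle 50% of genes. Dlk1, at -0.21 in a band with a median of -0.52, was just above it. Pdgfra, Pdgfrb, Cd34, Ly6a and Pi16 were inside it. Dcn, at 0.037, was just above the middle 50% of the 13 genes in the band from 13 up, which ended at 0.03. In LCS the band medians lay between 0.03 and 0.11.

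Each array's Dcn value was also subtracted from every gene, which gives each member as a ratio to Dcn within the array. Since Dcn itself hardly moved as deposited, this scale differs little from the deposited one and does not remove the lower level of the G609G arrays. In G609G all 9 other members fell relative to Dcn, which the flat Dcn values largely fix, with log2 folds from -0.25 for Dlk1 (limma adjusted p = 0.0272) and -0.42 for Ly6a (adjusted p = 2.59e-07) to -1.5 for Thy1 (adjusted p = 3.54e-10) and -2.75 for Cd248 (adjusted p = 2.30e-12). On this scale 73.8% of all genes were called lower, so the count again follows the background. The Dlk1 call was lost without array 1 or 2 of WT (adjusted p = 0.0599 and 0.078) or array 2 of G609G (-0.16, adjusted p = 0.154). In LCS 6 members rose relative to Dcn and Dpp4 fell by 0.22 (adjusted p = 0.0252), beside 20.3% of all genes higher and 13% lower; Pdgfra at 0.09 (adjusted p = 0.411) and Dlk1 at -0.04 were not called. The Dpp4 call on this scale was lost without array 1 or 2 of WT or any 1 LCS array, with adjusted p from 0.0638 to 0.122, and the Pdgfrb call without array 2 of WT or array 1 or 3 of LCS, with adjusted p from 0.0529 to 0.0719.

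**Figure D3:**
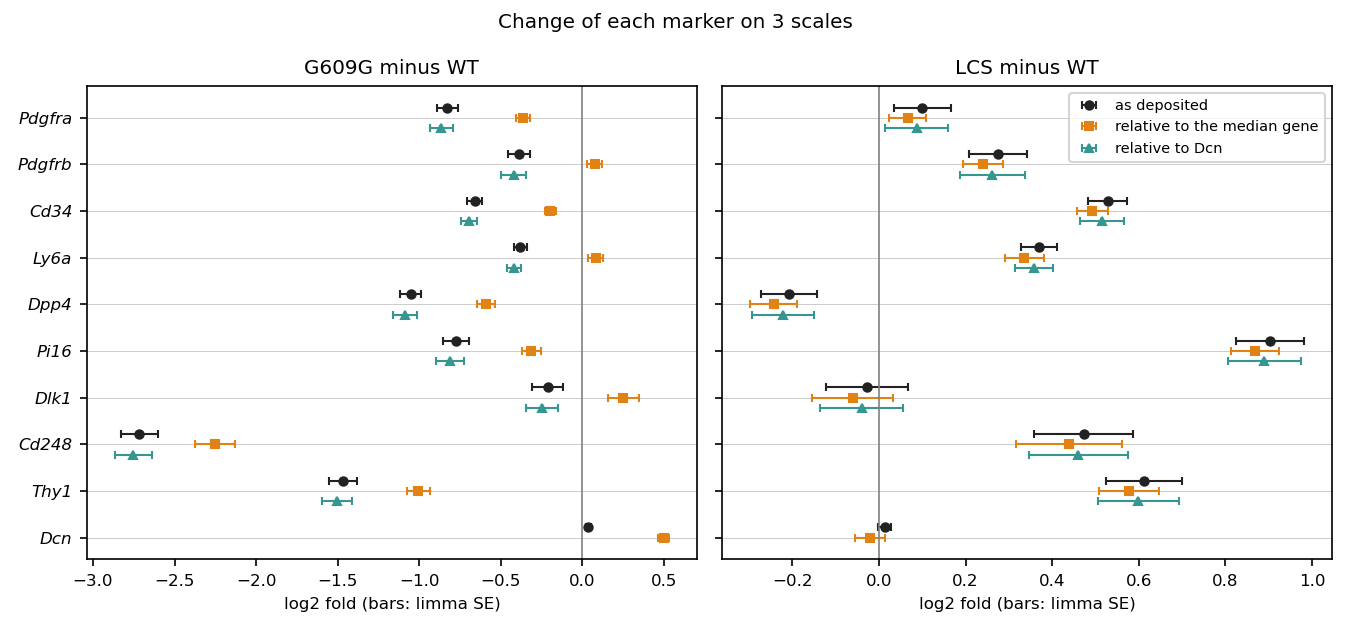
Log2 fold of each marker with limma's SE as bars, as deposited (circles), relative to the median gene (squares) and relative to Dcn (triangles), for G609G minus WT (left) and LCS minus WT (right), 3 arrays per group; the horizontal ranges differ. In G609G the scales disagree in sign for Pdgfrb, Ly6a and Dlk1, while in LCS the 3 values of each called gene lie close together.

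The mutants were also compared with each other, which uses the same arrays again. As deposited, 8 members were lower in G609G than in LCS and none higher, against 70.5% of all genes lower and 9.38% higher; 9 of 10 did not overlap, against 81.3%. The largest differences were those of Cd248 (-3.19, limma adjusted p = 3.94e-12), Thy1 (-2.08, adjusted p = 2.41e-11) and Pi16 (-1.68, adjusted p = 7.88e-11), and the smallest called one was that of Pdgfrb (-0.66, adjusted p = 4.07e-07). Relative to the median gene the same 8 members were lower, from -0.16 for Pdgfrb (adjusted p = 0.00705) to -2.69 for Cd248, beside 36.9% of all genes lower and 36.9% higher. Dcn at 0.52 (adjusted p = 4.62e-08) and Dlk1 at 0.31 (adjusted p = 0.00897) were then higher in G609G; as deposited, their values of 0.02 and -0.18 were not called. With a plain mean of its probe sets Dlk1 was called lower as deposited (-0.33, adjusted p = 0.00503), and over the fits without one array the value ran from -0.25 (adjusted p = 0.0349, without array 1 of G609G) to -0.08 (adjusted p = 0.408, without array 2 of G609G). Relative to Dcn 8 members were lower, with 71.6% of all genes lower.

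The single probe sets of most members pointed the same way. Over all tested probe sets 79.6% were lower and 20.3% higher in G609G as deposited (median -0.50), and 41.8% were lower and 57.7% higher in LCS. In G609G all probe sets that passed the filter on low values were lower for Pdgfra (25), Cd34 (12), Ly6a (3), Dpp4 (25), Pi16 (11), Cd248 (7) and Thy1 (8). For Pdgfrb 25 of 28 were lower, for Dlk1 7 of 8, and for Dcn 5 of 9 with 3 higher. The median fold over probe sets was -0.43 for Pdgfrb, -0.37 for Ly6a and -0.33 for Dlk1, no further down than the median of all probe sets, against -0.84 for Pdgfra, -1.07 for Dpp4 and -1.55 for Thy1. In LCS all probe sets were higher for Pdgfrb (28), Cd34 (12), Ly6a (3), Pi16 (11, from 0.81 to 1.2) and Thy1 (8), and 21 of 25 of Dpp4 were lower. Pdgfra was split in LCS, with 18 higher and 7 lower.

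Deviations of single probe sets from their gene were about as frequent among the members as in general. Of 136 member probe sets tested, limma's diffSplice and a splicing index (the probe set minus its gene, tested with its own variance) both called 16 (11.8%) as deviating from their gene in G609G minus WT, beside 10.9% of all 155155 tested probe sets. Both called 0 in LCS minus WT, beside 0.84%, where diffSplice alone called 1, beside 1.8%. In G609G minus LCS both called 23 (16.9%), beside 13.4%. By diffSplice alone the count against WT was 22 in G609G (16.2%, beside 15.9% of all), and 14 without array 1 or 12 without array 2 of WT. Between the mutants it was 33 (24.3%, beside 18.4%), and 17 without array 2 or 18 without array 3 of LCS.

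In G609G 6 of the 136 had a group mean under the filter of 5.13 and passed through the other groups, 3 of them in Cd248; their folds and deviations are not read as sizes. Cd248 is a gene with a single exon. Its probe set 5030052 changed from 12.22 ± 0.082 (mean ± SD, n = 3) in WT to 11.78 ± 0.101 in G609G, a log2 fold of only -0.44 (diffSplice adjusted p = 4.5e-12, splicing index adjusted p = 4.06e-09). Probe set 5457033 went from 8.56 ± 0.407 to 4.22 ± 0.429, which is under the filter. All 7 point down, and the 4 with a G609G mean over the filter had folds from -3.19 to -0.44; since the gene has 1 exon the difference between them cannot be read as exon use. In LCS 6 of the 7 were higher, and probe set 5030052 was at 12.19 ± 0.040.

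In Pdgfra, probe set 4879015 went from 7.42 ± 0.382 in WT to 5.28 ± 0.686 in G609G, a fold of -2.14 (diffSplice adjusted p = 1.67e-09, splicing index adjusted p = 0.00788). Its G609G mean was close to the filter of 5.13, so this fold is not read as a size. Probe set 5563999 of the same gene hardly moved, from 10.27 to 10.13 (adjusted p = 4.96e-04 and 5.68e-05). In Dpp4 both tests called 4 probe sets. Probe set 4515617 fell further than the gene, from 8.77 to 6.21, a fold of -2.55 (adjusted p = 1.25e-09 and 0.00437). So did 5539715, from 9.08 to 7.15 (adjusted p = 0.00217 and 0.00743), and 5519724, from 8.48 to 6.69 (adjusted p = 0.0176 and 0.03). The remaining probe set fell less than the gene, with a fold of -0.71. In Pi16 the deviating probe sets were 5269308, from 8.11 to 7.97 (adjusted p = 0.00733 and 0.0348), 5355734, from 8.04 to 7.89 (adjusted p = 0.00868 and 0.0115), and 4368978, from 9.42 to 7.93 (adjusted p = 0.0164 and 0.0477). In Pdgfrb both tests called 4, which went both ways. Probe set 4325582 went up from 9.56 to 9.76 although the gene fell (adjusted p = 0.00625 and 0.00116). Further down than the gene were 4403670, from 8.24 to 7.26 (adjusted p = 0.0234 and 0.0305), and 4629715, from 8.42 to 7.48 (adjusted p = 0.0376 and 0.0426). The remaining probe set of Pdgfrb had a fold of 0.05. The positions of these probe sets in their genes are not used here, so the exons they read are not given.

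**Figure D4:**
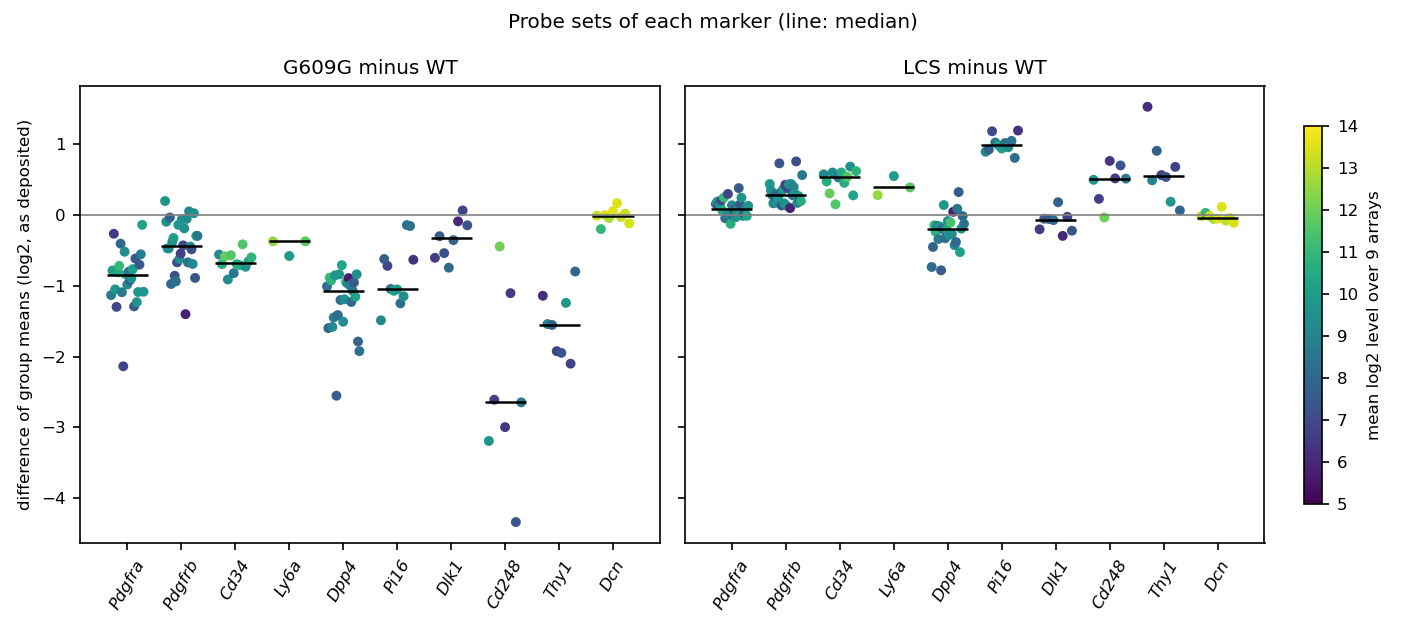
Difference of group means (log2, as deposited) of every member probe set above the filter, one column of points per gene with a line at its median, for G609G minus WT (left) and LCS minus WT (right); colour gives the mean log2 level. The 7 probe sets of Cd248 reach from -4.34 to -0.44 in G609G, where 3 of them have a group mean under the filter, and all 11 of Pi16 lie between 0.81 and 1.2 in LCS.

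Other genes known from the same cells were counted from lists, to be read beside all tested genes, of which 71.3% were lower and 8.26% higher in G609G as deposited, 36.7% lower and 34% higher on the scale of the median gene, and 13% lower and 22.5% higher in LCS. Values of single genes are as deposited, followed in G609G by the fold relative to the median gene. Markers of the Dpp4- and Pi16-carrying interstitial progenitor fell in G609G in 13 of 13 tested genes (median log2 fold -1.2), and in 10 of 13 relative to the median gene (median -0.74). Sema3c, a secreted semaphorin, fell by 1.54 (SE 0.052, limma adjusted p = 2.60e-12; relative -1.08), and Pcolce2, a procollagen processing enhancer, by 1.35 (SE 0.065, adjusted p = 1.47e-10; relative -0.89). In LCS 10 of these 13 rose and 1 fell (median 0.48), as Pi16 did and Dpp4 did not. Mfap5, a microfibril protein, rose by 0.98 (SE 0.064, adjusted p = 2.41e-08) and the IGF-binding protein Igfbp6 by 0.69 (SE 0.062, adjusted p = 6.88e-07).

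Of 12 genes of committed preadipocytes 10 fell and 1 rose in G609G (median -0.63); relative to the median gene 8 fell and 3 rose (median -0.17). The basement membrane collagen Col15a1 fell by 3.03 (SE 0.125, limma adjusted p = 2.42e-11; relative -2.57), more than any of the 10 members, and the lipoprotein lipase Lpl by 0.59 (SE 0.017, adjusted p = 3.63e-13; relative -0.13). In LCS 9 of the 12 rose and 1 fell (median 0.30), led by Col4a2 at 1.2 (SE 0.067, adjusted p = 4.54e-09). Several of these genes, such as Lpl, Cd36, Fabp4 and Pparg, are also expressed by mature adipocytes. Of 8 genes of the stroma that restrains fat formation 6 fell and 1 rose in G609G (median -0.39), but on the scale of the median gene 3 fell and 3 rose (median 0.08). Among the 8 genes, 1 that fell on both scales had a G609G mean under the filter on gene means. The tissue factor gene F3, which defines that stroma, fell by 1.42 (SE 0.076, adjusted p = 4.29e-10; relative -0.95), whereas Fmo2 rose by 0.86 (SE 0.063, adjusted p = 1.57e-08; relative 1.32). In LCS 4 of the 8 rose and none fell (median 0.24).

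Fibroblast genes at large fell in G609G in 18 of 18 cases (median -1.07), and relative to the median gene in 13, with 2 rising (median -0.61). Of the 18, 2 had a G609G mean under the filter on gene means, so their falls are not read as sizes. The fibrillar collagens Col3a1 and Col1a1 fell by 1.91 (SE 0.068, limma adjusted p = 4.67e-12; relative -1.45) and 1.52 (SE 0.056, adjusted p = 6.64e-12; relative -1.05). In LCS 14 of 18 rose and 1 fell (median 0.46), with Col6a1 at 0.92 (SE 0.060, adjusted p = 2.41e-08). Dcn did not follow the other small leucine-rich proteoglycans: all 6 tested fell in G609G (median -1.07; 5 relative to the median gene, median -0.61). Prelp fell by 2.5 (SE 0.032, adjusted p = 7.13e-17; relative -2.04), and Bgn, which encodes biglycan, by 0.61 (SE 0.029, adjusted p = 9.59e-11; relative -0.15). In LCS 4 of these 6 rose, Prelp by 0.41 (SE 0.032, adjusted p = 1.61e-07), while Dcn was not called.

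Among 16 genes of PDGF signalling, from ligands to adaptors, 13 fell in G609G (median -0.56), but relative to the median gene 6 fell and 5 rose (median -0.10), shares near those of all genes. The ligand Pdgfa, which binds Pdgfra, fell by 0.91 (SE 0.081, limma adjusted p = 1.20e-07; relative -0.44), and the Ras GTPase activator Rasa1 fell by 1.247 (SE 0.081, adjusted p = 3.91e-09; relative -0.78). In LCS 8 of 16 rose and none fell (median 0.27), among them Plcg1, a phospholipase that docks on the receptors, by 0.41 (SE 0.059, adjusted p = 8.55e-05). Dlk1 is imprinted, and of 7 tested imprinted growth genes 2 rose and 3 fell in G609G (median -0.13; on the scale of the median gene 4 rose, 1 fell, median 0.33). The non-coding RNA H19 rose by 1.252 (SE 0.135, adjusted p = 8.61e-07; relative 1.72) and Plagl1, a zinc finger regulator, fell by 1.248 (SE 0.080, adjusted p = 3.21e-09; relative -0.79). The WT mean of H19 (5.18) was close to the filter on gene means and its LCS mean (4.98) was under it. The rise of H19 is therefore not read as a size. In LCS 4 of 7 rose and none fell (median 0.25).

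**Figure D5:**
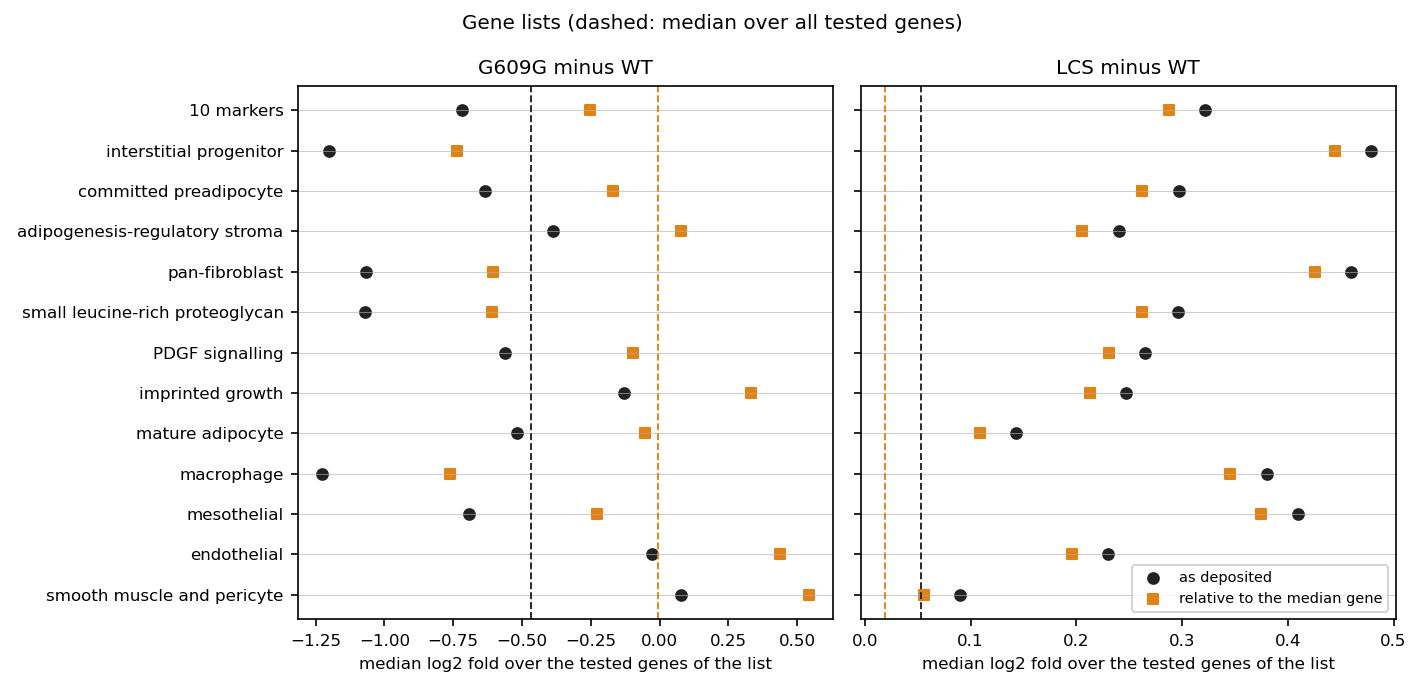
Median log2 fold over the tested genes of each list shown, as deposited (circles) and relative to the median gene (squares). G609G minus WT is on the left and LCS minus WT on the right, with the 10 members in the top row. Dashed lines give the median of all tested genes on each scale, and the horizontal ranges differ. The skeletal muscle, epididymis, T cell and proliferation lists are not shown. As deposited, the member median is -0.72 in G609G and 0.32 in LCS, and the median of the interstitial progenitor list is -1.2 and 0.48.

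Several members are not exclusive to progenitors, and the other cell types of fat moved too. The mean log2 level of 9 macrophage genes was 9.36 to 9.5 in WT, 8.11 to 8.35 in G609G and 9.86 to 9.94 in LCS, and 9 of 9 fell in G609G (median -1.23; 8 relative to the median gene). That of 9 endothelial genes, cells that also carry Cd34, was 9.11 to 9.24 in WT, 9.14 to 9.25 in G609G and 9.31 to 9.39 in LCS. As deposited 4 of the 9 rose and 3 fell in G609G (median -0.03), and 8 rose relative to the median gene, while Cd34 fell on both scales. In LCS 5 of 9 endothelial genes rose and 1 fell (median 0.23).

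The 11 smooth muscle and pericyte genes were listed as markers of cells that carry Pdgfrb and Cd248. They lay at a mean log2 level of 8.93 to 9.01 in WT, 9.02 to 9.16 in G609G and 8.88 to 8.99 in LCS. In G609G 6 rose and 5 fell as deposited (median 0.08), and on the scale of the median gene 7 rose, 2 fell (median 0.54). The 5 that fell as deposited were Mcam (-1.69), Cspg4 (-0.70), Notch3 (-0.68), Kcnj8 (-0.42) and Rgs5 (-0.26). The 6 that rose were Des (2.61), Cnn1 (0.90), Myh11 (0.64), Tagln (0.44), Abcc9 (0.37) and Acta2 (0.08), so the list mean and median describe neither part. Skeletal muscle genes were also higher in the G609G arrays, as given above. The part of that tissue in Des and the other genes that rose was not tested. Relative to the median gene, Mcam and Notch3 still fell. In LCS 3 of the 11 rose and 3 fell (median 0.09). Mesothelial genes, which mark the lining of visceral fat, fell in 10 of 10 cases in G609G (median -0.69; 7 relative to the median gene) and 7 of 10 rose in LCS with 2 falling (median 0.41). Of 11 mature adipocyte genes 10 fell in G609G (median -0.52; on the scale of the median gene 5 fell, 3 rose) and 8 rose in LCS (median 0.14). Their mean log2 level was 12.56 to 12.57 in WT, 11.27 to 11.35 in G609G and 12.79 to 12.83 in LCS. The largest falls in G609G were those of Lep (-5.87) and Dgat2 (-2.86), which weigh more on this mean than on the median. The G609G mean of Lep (4.76) was under the filter on gene means, so its fall is not read as a size. Only 3 of 8 proliferation genes passed the filter, and 3 of these fell in G609G as deposited (median -0.90), and 2 on the scale of the median gene (median -0.44); 1 of the 3 had a G609G mean under the filter. The part of these cell types in the members' changes was not tested.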

How the data were processed

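Log2 expression values of 229581 exon-array probe sets, deposited by the authors as a value table with 2 decimals, were used as they stand. The array normalization and summary behind them are not given in the sources used here. Their build is mm9, per the submitters' processing notes. The values of one gene's probe sets were summarised by median polish. All 9 arrays, 3 per genotype, entered one limma fit (R 4.3.3, limma 3.58.1, eBayes with trend) over the 11342 genes that had 3 or more probe sets and exceeded the 25th percentile of gene means (5.09), with Benjamini-Hochberg adjustment at 0.05. The design text speaks of 10 samples; 9 are analysed here. If replicates share an animal, p-values measure technical spread only. The number of arrays limits the precision.

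The deviation of a probe set from its gene was tested with diffSplice among those over the 25th percentile; in simulated data it made false calls where probe sets of a gene vary unequally, so probe sets are named only where a splicing index called them too, at most 3 per member with the lowest p. From each list up to 4 genes with the lowest p per comparison with WT could be named. The members and lists were chosen with earlier results of these data known. A list is described by counts and its median, with no test. Promoters came from RefSeq (GRCm38.p6); figures used Python 3.11.15 with matplotlib 3.10.9.

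Replicate numbers are shared by the groups in the labels. The deviations of same-numbered G609G and WT arrays from their group means correlated at r = 0.17, 0.14 and 0.34 across genes. Those of LCS and WT were at -0.11, 0.20 and 0.08, and those of G609G and LCS at -0.12, 0.12 and 0.11. Of the 9 arrays, 7 correlated best with a same-numbered array when compared with all arrays of the other groups. The numbers may denote pairs, which the labels do not state. The main fit has no block for them, and the fit with a block is given below. Fits with the replicate number as a block, other scalings, summaries, filters, the methods' t-test and each array left out were run as alternatives.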

Additional observations from a re-analysis of the deposited data

How the results depend on the processing

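The limits are the G609G offset, which other scalings remove, and 3 arrays per group. Relative to the median gene, genes called higher and lower became 3858 and 4160 (G609G minus WT) and 4186 and 4182 (G609G minus LCS), with 2 members higher in each; Pdgfrb turned to 0.078, Ly6a to 0.083 and Dlk1 to 0.25 (G609G minus WT), Dlk1 to 0.31 (G609G minus LCS) and Dcn to -0.021 (LCS minus WT). Quantile normalization gave 3531 and 4297, and 3651 and 4385, with 1 member higher in each; Pdgfrb was 0.033 and Dlk1 0.30 (G609G minus WT), Dlk1 0.027 and Dcn -0.044 (LCS minus WT) and Dlk1 0.27 (G609G minus LCS). With a plain mean of probe sets 0 members were lower in LCS, Dcn was -0.015 (G609G minus WT) and -0.023 (LCS minus WT), and Dlk1 in LCS was 0.014, or 0.037 relative to Dcn. Without the filter on dim genes 1730 (G609G minus WT) and 1905 (G609G minus LCS) genes were higher. The methods' t-test with a fold of 1.5 called 410 genes higher and 4648 lower (G609G minus WT), 440 and 525 (LCS minus WT) and 492 and 4878 (G609G minus LCS), and after Benjamini-Hochberg 409 and 4619, 429 and 513, and 490 and 4850; it called 2 members higher and 0 lower in LCS both ways. The fold limit removes smaller changes by construction; the cause of the other moves was not tested. In LCS minus WT diffSplice called 0 member probe sets above the 50th percentile, and the splicing index in place of diffSplice called 2. With the replicate block diffSplice called 20, 1 and 35 member probe sets (22, 1 and 33 without it), and no member's call changed as deposited. Leaving out one array gave 12 to 26, 0 to 3 and 17 to 33 such probe sets (12 without array 2 of WT, 17 without array 2 of LCS; the 1 in LCS minus WT was lost without array 1 or 2 of WT or any LCS array), 0 to 1 members higher in G609G minus WT, 0 to 1 lower in LCS minus WT, and -0.047 to 0.003 for Dlk1 in LCS.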
